A study of Mus musculus with 18 samples.

Results

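The 35 genes described here are mouse genes of antioxidant defence: the metallothioneins, the enzymes that remove superoxide and peroxides, the thioredoxin and glutathione systems, and NRF2 with its regulators and targets. They were taken by symbol from the 55291 genes listed for each tissue, and all 35 were listed in both. Expression was measured by a bulk form of MARS-seq, which counts the 3′ ends of transcripts, in mice with and without intact copies of Otub2, a deubiquitinase gene of the OTU family that the study examined for its part in pancreatic beta-cell function and survival. Pancreas gave 3 homozygous libraries (HOM, OTUB2 -/-, all male), 5 heterozygous libraries (HET, OTUB2 +/-, 2 female and 3 male) and 3 wild-type libraries (WT, OTUB2 +/+, 1 female and 2 male). Liver gave 5 HET and 2 WT libraries of unstated sex, and no HOM liver was analysed here. Mice were kept under normal conditions, per the labels, and strain, age and the deleted part of Otub2 are not given in the sources used here. Libraries are named by genotype and replicate number (HET 5). Nothing states that each library is a separate animal, so p-values measure the spread between libraries, which may be partly technical.

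NRF2, encoded by Nfe2l2, is a transcription factor held at a low level by KEAP1, which marks it for degradation. When oxidants or electrophiles modify KEAP1, NRF2 builds up and binds antioxidant response elements beside genes of glutathione synthesis, thioredoxin recycling and NADPH supply. Metallothioneins are small cysteine-rich proteins that bind zinc and copper. In the liver they are induced by metals, glucocorticoids and inflammatory signals. Liver is rich in most of these enzymes, while pancreatic beta cells are known for low levels of several peroxide-removing enzymes.

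Liver libraries held 155201 (WT 1) to 1686234 (HET 5) counts and pancreas libraries 49502 (HET 9) to 1326541 (HET 11). Levels are given as CPM, the count of a gene divided by the total of its library and scaled to 1000000. Because 3′ ends are counted, a CPM value does not scale with transcript length. The 8 hepatocyte markers summed to 83357 to 96598 CPM in HET livers and 97029 to 113163 CPM in WT livers, and islet markers were at 0 in every liver. The pancreas libraries went against their label in part. Acinar markers summed to 4210 to 15988 CPM in HOM, 105 to 165041 CPM in HET and 154 to 1158 CPM in WT pancreata. Among them the enzymes Prss2 and Cel were at 0 counts in all 11 libraries, as was the islet hormone Gcg. The acinar gene Clps ran from 1 to 188192 counts. Ins1 had 51, 16, 59, 30 and 79 counts in HOM 10, HOM 21, HET 10, HET 16 and WT 16 and 0 in the others. Islet markers summed to 59.2 to 293 CPM in HOM, 0 to 768 CPM in HET and 0 to 419 CPM in WT pancreata. Otub2 itself had 1 count over the 3 HOM pancreata, 1 count over the 5 HET and 10 counts over the 3 WT, with means of 1.63 ± 2.81 CPM in HOM, 0.298 ± 0.667 CPM in HET and 38.6 ± 23.6 CPM in WT (SD). The mean in HET, labelled with 1 intact copy, was thus not between those of HOM and WT. The HOM and HET means rest on 1 count each, and neither difference from WT passed the threshold. Whether the 3′ reads lie outside the deleted part cannot be told, since that part is not given. In livers it had 0 to 2 counts.

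The 35 genes made up 1.44% ± 0.202 of counts in HET livers (SD, n = 5) and 1.24% ± 0.164 in WT livers (SD, n = 2). In pancreas the share averaged 0.107% ± 0.0662 (SD, n = 3) for HOM, 0.272% ± 0.233 (SD, n = 5) for HET and 0.0734% ± 0.0433 (SD, n = 3) for WT. Of the 35, 34 had counts in liver and 33 in pancreas. Sod3 (extracellular superoxide dismutase) was at 0 in all libraries of both tissues, and Prdx3 (a mitochondrial peroxiredoxin) in all pancreata.

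In liver, no antioxidant gene passed the threshold between HET and WT. Of the 35, 30 had enough counts to be tested by edgeR's quasi-likelihood test (the other 5 were Sod3, Prdx1, Nqo1, Hmox1 and G6pdx). The fitted level was higher in HET for 18, against 52.1% of all genes tested, and lower for 12. Of the 30, 0 had an adjusted p under 0.05, as did 0% of the 4803 genes tested. At an unadjusted p under 0.05 there were 3 (Prdx4, Srxn1 and Selenop), all higher in HET, against 10.3% of all genes (5.39% higher and 4.96% lower). DESeq2's Wald test called 0 of the 30 and 0.333% of all genes. The median log2 fold change of the 30 was 0.17, against 0.03 over all genes tested. The plot of liver levels by gene shows how far the HET and WT points overlap.

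**Figure D1:**
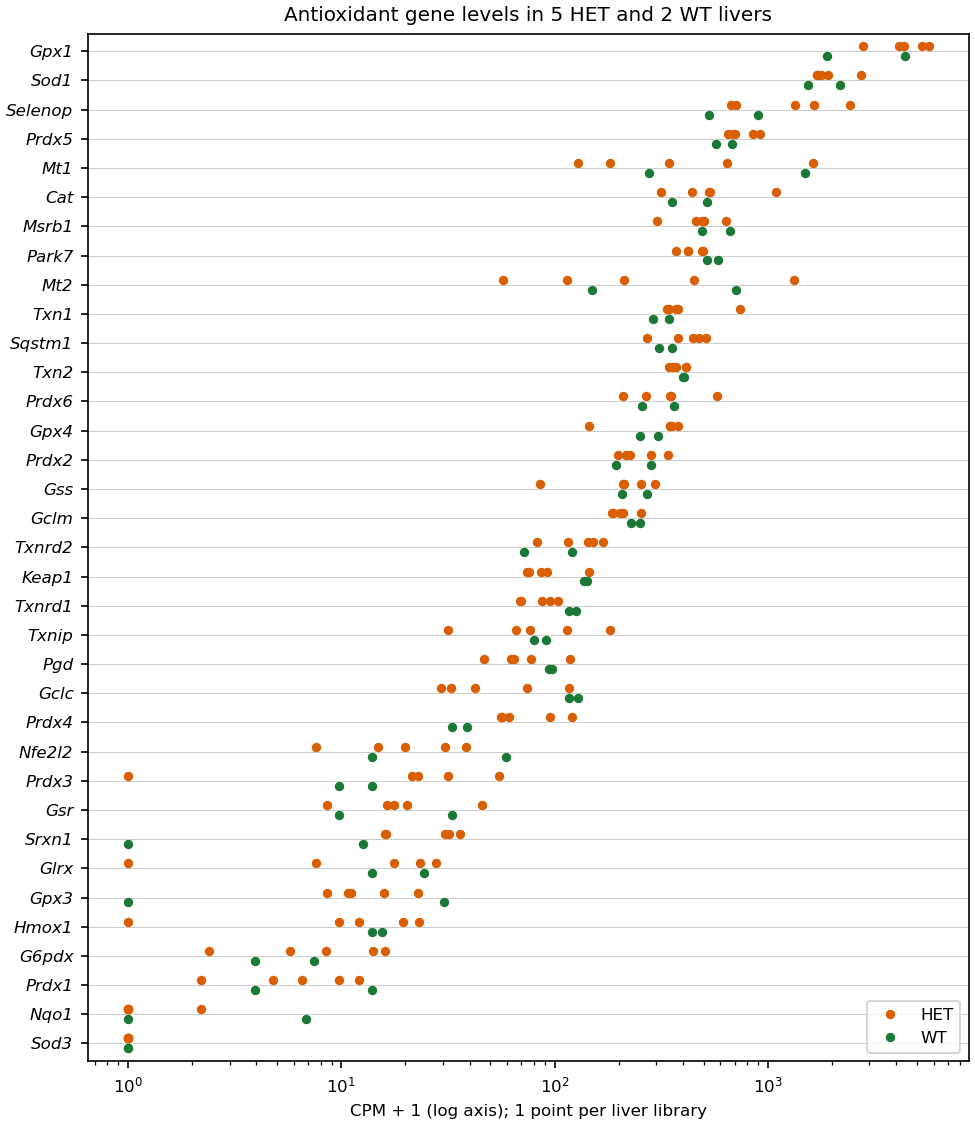
CPM + 1 on a log axis of the 35 genes in liver, ordered by mean level, with 1 point per library for 5 HET (orange) and 2 WT (green) livers. Gpx1 leads at a mean of 4081 CPM; Mt1 and Mt2 spread most widely among genes above 400 CPM, and Txn2 spreads least, from 344 to 415 CPM.

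Mt1 and Mt2, the 2 metallothionein genes, varied more between livers than between genotypes. Mt1 had 640, 342, 1627, 181 and 128 CPM in HET 1 to HET 5, against 277 and 1500 CPM in WT 1 and WT 2. Mt2 had 452, 211, 1331, 113 and 56.3 CPM in HET 1 to HET 5, against 148 and 712 CPM in WT 1 and WT 2. Both genes put the 7 livers in the same order, HET 3 and WT 2 at the top and HET 4 and HET 5 at the bottom, with a 12.7-fold range for Mt1 and a 23.6-fold range for Mt2. The WT values lay inside the HET range for both. The log2 fold change, HET over WT, was −0.46 ± 1.22 (SE) for Mt1 (adjusted p = 0.932) and 0.14 ± 1.43 for Mt2 (adjusted p = 0.987); the sign for Mt2 turned when libraries were scaled by total counts. Saa1, an acute-phase gene, had 544, 4326, 8821, 510 and 77.1 CPM in HET 1 to HET 5, against 567 and 703 CPM in WT 1 and WT 2. HET 3 was thus highest and HET 5 lowest for Mt1, Mt2 and Saa1, while HET 2 ranked 2 for Saa1 and 4 for the metallothioneins. The part of an acute-phase state in these levels was not tested.

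**Figure D2:**
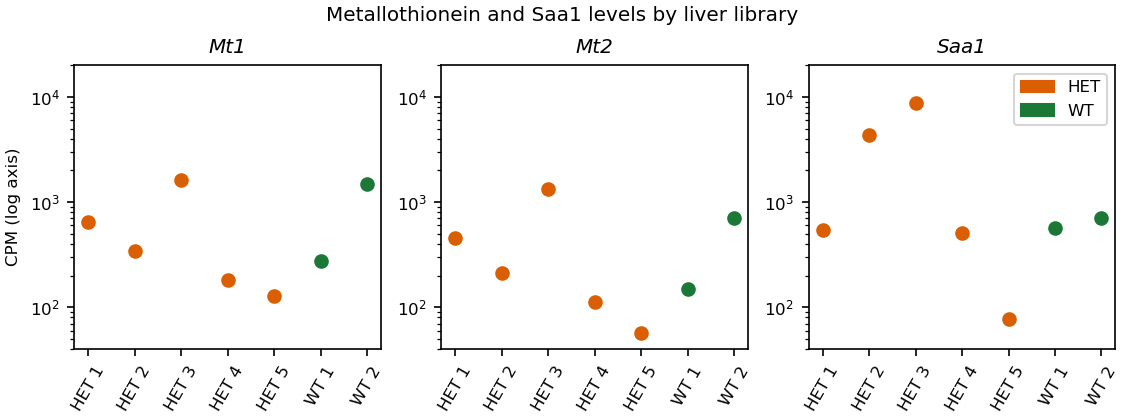
CPM on a log axis of Mt1, Mt2 and Saa1 in each liver, HET 1 to HET 5 (orange) and WT 1 and WT 2 (green), with 1 point per library. Mt1 and Mt2 trace the same pattern, high in HET 3 and WT 2, whereas Saa1 is high in HET 2 and HET 3 and at 703 CPM in WT 2.

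Mt1 (chromosome 8, 94179082 to 94180327, plus strand, mm10) and Mt2 (94172664 to 94173568) lie next to each other, and Mt2 overlaps the predicted gene Gm45774 on the opposite strand. Their upstream sequences are shown because the pair moved together across livers and because both genes are known to be driven through metal response elements. The 250 bases before the RefSeq start are given (GRCm38.p6, plus strand, chr8:94178839-94179088 for Mt1 and chr8:94172368-94172617 for Mt2), with capitals at each match to the metal response element core, TGCGCNC or TGCACNC on either strand.
Mt1: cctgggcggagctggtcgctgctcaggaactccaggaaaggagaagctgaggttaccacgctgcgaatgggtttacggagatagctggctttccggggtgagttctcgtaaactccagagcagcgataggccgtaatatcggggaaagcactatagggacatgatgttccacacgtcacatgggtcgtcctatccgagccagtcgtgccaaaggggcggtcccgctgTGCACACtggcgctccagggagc
Mt2: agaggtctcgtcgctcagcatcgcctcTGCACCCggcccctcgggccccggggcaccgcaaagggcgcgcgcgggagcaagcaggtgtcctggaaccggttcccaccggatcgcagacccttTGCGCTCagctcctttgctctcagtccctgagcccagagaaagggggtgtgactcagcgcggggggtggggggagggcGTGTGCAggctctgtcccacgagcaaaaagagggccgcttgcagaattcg
The Mt2 window held 3 matches and the Mt1 window 1, none overlapping another motif searched. Such a core was found in 21.4% of all 32851 mouse RefSeq promoter windows of that length. The RefSeq windows covered 30 of the 35 genes with 39 promoters, of which 28.2% held the core. A match is a match of letters, and elements outside the 250 bases are not seen. The RefSeq start used for Mt1 may lie upstream of the promoter in use, so the single match is no count of the elements of that gene.

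The antioxidant response element core, TGACNNNGC on either strand, was found in the same windows of 7 of the 30 genes, in 17.9% of their 39 promoters against 10.2% of all promoters. The 7 matches are shown with 10 bases on each side, because they differ at the variable letters; each is read on the gene's own strand, so a match on the other strand appears as its reverse complement. Capitals mark the core.
Prdx1: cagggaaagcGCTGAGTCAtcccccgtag
Sod1: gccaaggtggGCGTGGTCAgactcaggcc
Txnrd1: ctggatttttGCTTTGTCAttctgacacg
Gclm: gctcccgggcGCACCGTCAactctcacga
G6pdx: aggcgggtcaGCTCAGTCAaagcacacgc
Nfe2l2: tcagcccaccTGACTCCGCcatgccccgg
Mt2: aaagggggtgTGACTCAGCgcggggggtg
The Gclm core overlapped another motif match and the other 6 did not.

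Among the 35 genes, superoxide removal in liver was represented by Sod1 alone, since Sod3 had no counts. Sod2, the mitochondrial superoxide dismutase, is not one of the 35. Its means were 156 ± 95.2 CPM in HET and 140 ± 57.4 CPM in WT livers (SD). Its log2 fold change was 0.28 ± 0.46 (edgeR adjusted p = 0.881). Sod1 is the cytosolic copper-zinc superoxide dismutase and was the second most abundant of the 35 genes in liver. Sod1 had 1768, 1692, 1701, 1919 and 2728 CPM in HET 1 to HET 5, against 2178 and 1550 CPM in WT 1 and WT 2. The groups overlapped and HET 5 stood above the other 6 livers. The log2 fold change was 0.15 ± 0.29 (adjusted p = 0.898). Sod1 overlaps Scaf4 on the opposite strand, and whether the counting used strand is not given in the sources used here.

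Among the 10 genes of peroxide removal, 9 were tested in liver and 8 had a higher fitted level in HET, with none past the threshold and a median log2 fold change of 0.37. Prdx4, a peroxiredoxin of the endoplasmic reticulum, had the smallest p of the 35 genes. It had 55.8, 94.3, 54.8, 60.5 and 120 CPM in HET 1 to HET 5, against 32.2 and 37.9 CPM in WT 1 and WT 2. All 5 HET livers lay above both WT livers. The log2 fold change was 1.23 ± 0.48 (adjusted p = 0.393), and it ran from 1.03 to 1.35 when each library was left out in turn. The WT values of Prdx4 rested on 5 and 13 counts.

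Gpx1, the selenium-dependent cytosolic glutathione peroxidase, was the most abundant of the 35 genes in liver. It had 4130, 5284, 2806, 4345 and 5689 CPM in HET 1 to HET 5, against 4414 and 1897 CPM in WT 1 and WT 2. Only WT 2 lay below the HET range, and the log2 fold change was 0.57 ± 0.35 (adjusted p = 0.604). Cat, the peroxisomal catalase, had 529, 441, 316, 533 and 1095 CPM in HET 1 to HET 5, against 515 and 356 CPM in WT 1 and WT 2. HET 5 alone stood out, and the log2 fold change of Cat was 0.49 ± 0.38, or 0.17 ± 0.26 without HET 5. Prdx5, a peroxiredoxin of mitochondria, peroxisomes and cytosol, had 849, 683, 699, 922 and 651 CPM in HET 1 to HET 5, against 677 and 572 CPM in WT 1 and WT 2. The groups overlapped (log2 fold change 0.37 ± 0.28, adjusted p = 0.676).

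Of the other peroxide-removing genes in liver, Gpx4, which reduces lipid peroxides in membranes, had 380, 356, 349, 348 and 145 CPM in HET 1 to HET 5, against 251 and 304 CPM in WT 1 and WT 2. The first 4 HET livers lay above both WT livers and HET 5 lay below them. Prdx6 ran from 208 to 578 CPM in HET and was at 361 and 257 CPM in WT; Prdx2 ran from 197 to 341 CPM in HET and was at 284 and 193 CPM in WT. Prdx3 ran from 0 to 54.0 CPM in HET and was at 12.9 and 8.76 CPM in WT, on 2 and 3 counts (log2 fold change 1.52 ± 0.94, adjusted p = 0.604). Gpx3, the secreted glutathione peroxidase, stayed under 30 CPM in all livers. Prdx1 had 1 to 6 counts per liver and was not tested. Genes with near-identical pseudogene copies, such as Prdx1, Txn1 and Gpx4, have uncertain levels, since the treatment of shared reads is not given in the sources used here.

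All 7 genes of the thioredoxin system were tested in liver, 5 with a higher and 2 with a lower fitted level in HET (4 and 3 with scaling by total counts, where Txn2 turned). Srxn1 encodes sulfiredoxin, which repairs over-oxidised peroxiredoxins and is a target of NRF2. It had 29.8, 15.2, 35.1, 15.1 and 30.8 CPM in HET 1 to HET 5, against 0 and 11.7 CPM in WT 1 and WT 2. All HET livers lay above both WT livers, which held 0 and 4 counts. The log2 fold change was 1.83 ± 0.81 (adjusted p = 0.460), and 1.30 without WT 1; without WT 2 the remaining WT library is at 0 and gives no fold. Txn1, cytosolic thioredoxin, had 337, 377, 342, 370 and 740 CPM in HET 1 to HET 5, against 341 and 289 CPM in WT 1 and WT 2. HET 5 was the highest: the log2 fold change was 0.54 ± 0.33 with it and 0.30 ± 0.25 without it (adjusted p = 0.598 and 0.634).

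Txnrd1, the cytosolic thioredoxin reductase and another NRF2 target, went the other way. It had 68.9, 85.9, 94.3, 68.0 and 103 CPM in HET 1 to HET 5, against 116 and 126 CPM in WT 1 and WT 2. Both WT livers lay above all HET livers, with a log2 fold change of −0.42 ± 0.35 (adjusted p = 0.713). Txnrd2, the mitochondrial reductase, ran from 81.8 to 168 CPM in HET and was at 70.9 and 120 CPM in WT. Txn2, mitochondrial thioredoxin, was the steadiest of the 35 genes, within 1.21-fold over the 7 livers. Msrb1, a selenium-containing methionine sulfoxide reductase, had 501, 457, 493, 302 and 633 CPM in HET 1 to HET 5, against 664 and 490 CPM in WT 1 and WT 2, and its groups overlapped (log2 fold change −0.18 ± 0.30). Txnip, which binds and inhibits thioredoxin, ran from 30.7 to 181 CPM in HET and was at 90.2 and 78.8 CPM in WT.

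The glutathione system had 4 of its 5 genes with a lower fitted level in HET livers, none past the threshold, and a median log2 fold change of −0.10. Gclc, the catalytic subunit of the rate-limiting enzyme of glutathione synthesis, had 31.6, 73.5, 28.5, 41.6 and 116 CPM in HET 1 to HET 5, against 116 and 128 CPM in WT 1 and WT 2. HET 5 reached the WT values and the other HET livers lay below them. The log2 fold change was −0.93 ± 0.47 (adjusted p = 0.515), and −1.32 ± 0.42 without HET 5 (adjusted p = 0.151). Gclm, the regulatory subunit of the same enzyme, was steady, at 185 to 254 CPM in HET and 251 and 228 CPM in WT. Gss, glutathione synthetase, had 210, 252, 296, 208 and 84.8 CPM in HET 1 to HET 5, against 206 and 271 CPM in WT 1 and WT 2, so that only HET 5 was low. Gsr, glutathione reductase, and Glrx, glutaredoxin, stayed under 45 CPM in all livers.

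NRF2 targets that supply NADPH or break down quinones and haem were scarce in liver. Nqo1 had 2 counts in HET 5, 2 in WT 2 and 0 in the other livers. Hmox1 ran from 0 to 22.2 CPM in HET livers and was at 12.9 and 14.6 CPM in WT livers. G6pdx stayed at or under 15.1 CPM in HET and 6.44 CPM in WT. Pgd, the second NADPH-making enzyme of the pentose phosphate pathway, ran from 45.7 to 117 CPM in HET and was at 96.6 and 93.4 CPM in WT (log2 fold change −0.33 ± 0.40).

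Keap1 had 85.6, 73.5, 74.5, 144 and 91.3 CPM in HET 1 to HET 5, against 142 and 137 CPM in WT 1 and WT 2. HET 4 lay with the WT livers and the other HET livers below them (log2 fold change −0.51 ± 0.36, adjusted p = 0.652). Nfe2l2 ran from 6.58 to 37.4 CPM in HET and was at 12.9 and 58.4 CPM in WT. Sqstm1, an autophagy receptor that binds KEAP1, ran from 272 to 510 CPM in HET and was at 354 and 306 CPM in WT. Park7, a redox-sensitive protein also known as DJ-1, had 372, 420, 421, 499 and 492 CPM in HET 1 to HET 5, against 586 and 520 CPM in WT 1 and WT 2. All HET livers lay below both WT livers, by a log2 fold change of −0.24 ± 0.26 (adjusted p = 0.798).

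Selenop, the liver-made plasma protein that carries selenium to other organs, had 1340, 1640, 671, 707 and 2427 CPM in HET 1 to HET 5, against 902 and 531 CPM in WT 1 and WT 2. HET 1, HET 2 and HET 5 lay above both WT livers and the other HET livers between them. The log2 fold change was 1.00 ± 0.46 (adjusted p = 0.483), or 0.73 ± 0.42 without HET 5 (adjusted p = 0.479). A fit with no filter on low counts took in all 18552 genes with a count in liver. There the value for Selenop was 1.18 ± 0.31 and passed the threshold (edgeR adjusted p = 0.0462). Selenop was the only one of the 35 genes to do so in a liver fit. The median log2 fold change over all genes was also higher in that fit, at 0.43 against 0.03 in the main fit. Selenop overlaps Ccdc152 on the opposite strand.

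**Figure D3:**
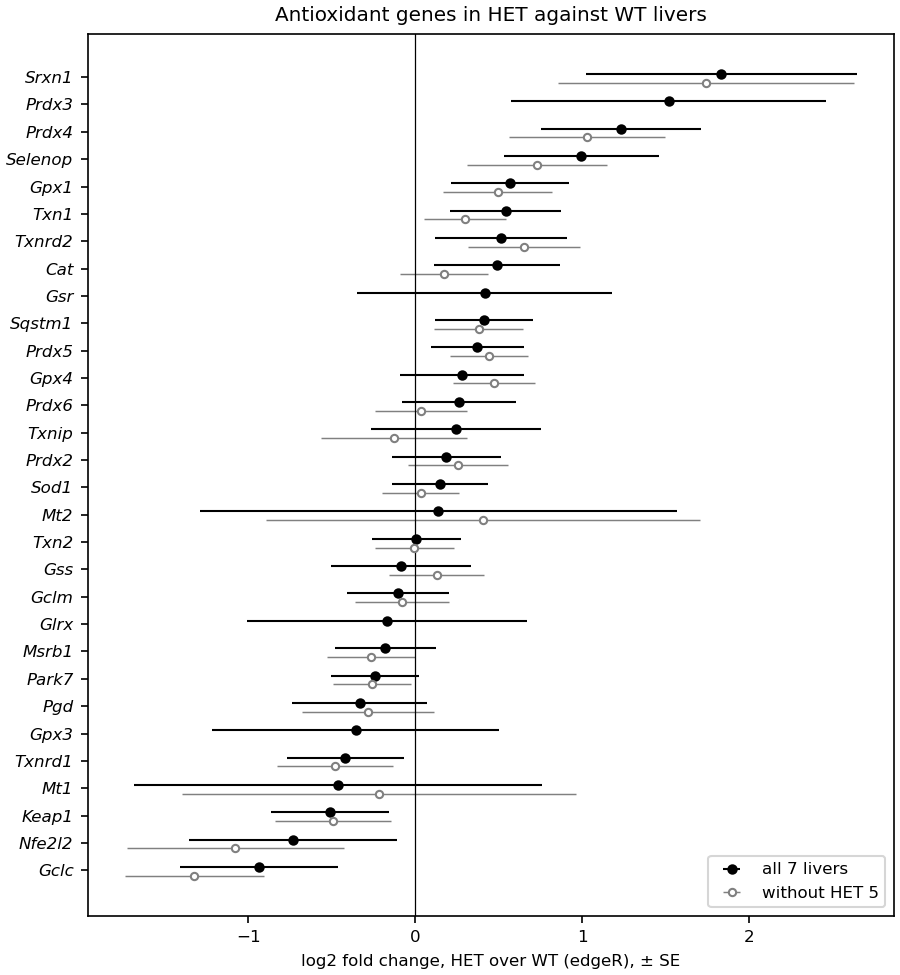
Log2 fold change, HET over WT, with its SE (edgeR) for the 30 genes tested in liver: filled points use all 7 livers, open points leave out HET 5 (26 genes tested). Srxn1, Prdx3, Prdx4 and Selenop lie furthest to the right and Gclc furthest to the left, and no gene passed the adjusted threshold in either fit.

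Over the 30 tested genes, 2 (Prdx4 and Srxn1) had all HET livers above both WT livers, against 6.95% of all genes tested, and 2 (Txnrd1 and Park7) had all HET livers below, against 11.1%. These shares are near the background. Without HET 5, 26 of the genes were tested, 15 higher and 11 lower, with a median log2 fold change of 0.08. HET 5 was the deepest library and held the highest level of 12 of the 35 genes. The hepatocyte markers, 8 of 8 with counts in each liver, summed lower in all HET than in both WT livers, as given above. Alb among them overlapped, at 11112 to 33895 CPM in HET and 26746 and 18984 CPM in WT livers. Stellate cell and fibroblast markers, 3 to 6 of 8 with counts, summed to 26.3 to 48.5 CPM in HET and 52.5 to 77.3 CPM in WT livers. Acinar markers, 1 to 3 of 18 with counts, summed to 98.4 to 192 CPM in HET and 37.9 to 70.9 CPM in WT livers. Markers of Kupffer cells and other macrophages overlapped, at 377 to 779 CPM in HET and 773 to 779 CPM in WT livers. Liver endothelial markers (96.5 to 234 CPM in HET, 181 to 187 CPM in WT) and duct markers (514 to 1149 and 905 to 1160 CPM) also overlapped. Transcripts of mitochondrial DNA summed to 1085 to 2426 CPM in HET and 2478 to 2880 CPM in WT livers. Olfactory and vomeronasal receptor genes, not known to be expressed in liver, summed to 6.52 to 67.0 CPM in HET and 96.6 to 123 CPM in WT livers. The part of these differences in the levels above was not tested, and in bulk tissue fewer cells of a type and less RNA per cell cannot be told apart.

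Of 66 further genes of the pathway, 46 were tested in liver. The fitted level was higher in HET for 25, against 52.1% of all genes tested, and lower for 21. Of the 46, 0 passed the threshold, as did 0% of all genes tested. Selenof, a selenoprotein of the endoplasmic reticulum, had 166, 132, 59.2, 90.7 and 111 CPM in HET 1 to HET 5, against 45.1 and 43.8 CPM in WT 1 and WT 2. All HET livers lay above both WT livers (log2 fold change 1.43 ± 0.46, adjusted p = 0.296). Nfe2l1, a relative of NRF2, had 102, 103, 164, 106 and 113 CPM in HET 1 to HET 5, against 193 and 271 CPM in WT 1 and WT 2, and all HET livers lay below (log2 fold change −0.89 ± 0.33, adjusted p = 0.382). Gstm1, a glutathione transferase and NRF2 target, was also below WT in every HET liver, at 1374 to 3033 CPM in HET against 3415 and 3348 CPM in WT (log2 fold change −0.71 ± 0.29, adjusted p = 0.416). Mgst1, a membrane glutathione transferase, ran the other way with overlap, at 1587 to 3975 CPM in HET against 1869 and 1147 CPM in WT (log2 fold change 0.89 ± 0.34, adjusted p = 0.392). By list, 13 of 14 other redox enzymes were higher in HET (12 with scaling by total counts, where Glrx2 turned), 11 of 27 other NRF2 targets, and 1 of 5 NRF2 partners and repressors. The medians of the log2 fold change were 0.46, −0.12 and −0.70 for these lists, against 0.03 over all genes tested. None of the lists had a gene past the threshold.

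In pancreas, the antioxidant genes were mostly a feature of 2 libraries, HET 11 and HET 16. These held 92.1% of the 11119 counts of the 35 genes, against 66.5% of all pancreas counts. By library the genes made up 0.491% and 0.556% of counts in HET 11 and HET 16, 0.0775% to 0.145% in the other HET, 0.0678% to 0.184% in HOM and 0.0236% to 0.102% in WT. For 19 of the 33 genes with counts, over 90% of the counts came from these 2 libraries, and for 4 (Cat, Txnrd2, Srxn1 and Nqo1) all of them did.

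HET 11 and HET 16 also stood apart in what else they held. Gastric mucosa markers, led by Pgc and Tff1, had counts there for all 14 of the 16 listed genes that the table holds and summed to 231730 and 194133 CPM, against 18.4 to 26201 CPM in the other 9 pancreata. Acinar markers summed to 165041 and 62852 CPM there, against 105 to 15988 CPM elsewhere. Olfactory and vomeronasal receptor genes, not known as pancreatic genes, summed to 151 and 252 CPM there, against 2420 to 7278 CPM elsewhere. The part of stomach tissue, of acinar content and of library quality in the antioxidant levels was not tested. TMM scaling factors were 0.175 and 0.268 for these libraries, against 1.29 to 1.61 for the other 9, so a fitted fold change differs from the ratio of CPM values. The main results are therefore given with and without these libraries.

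**Figure D4:**
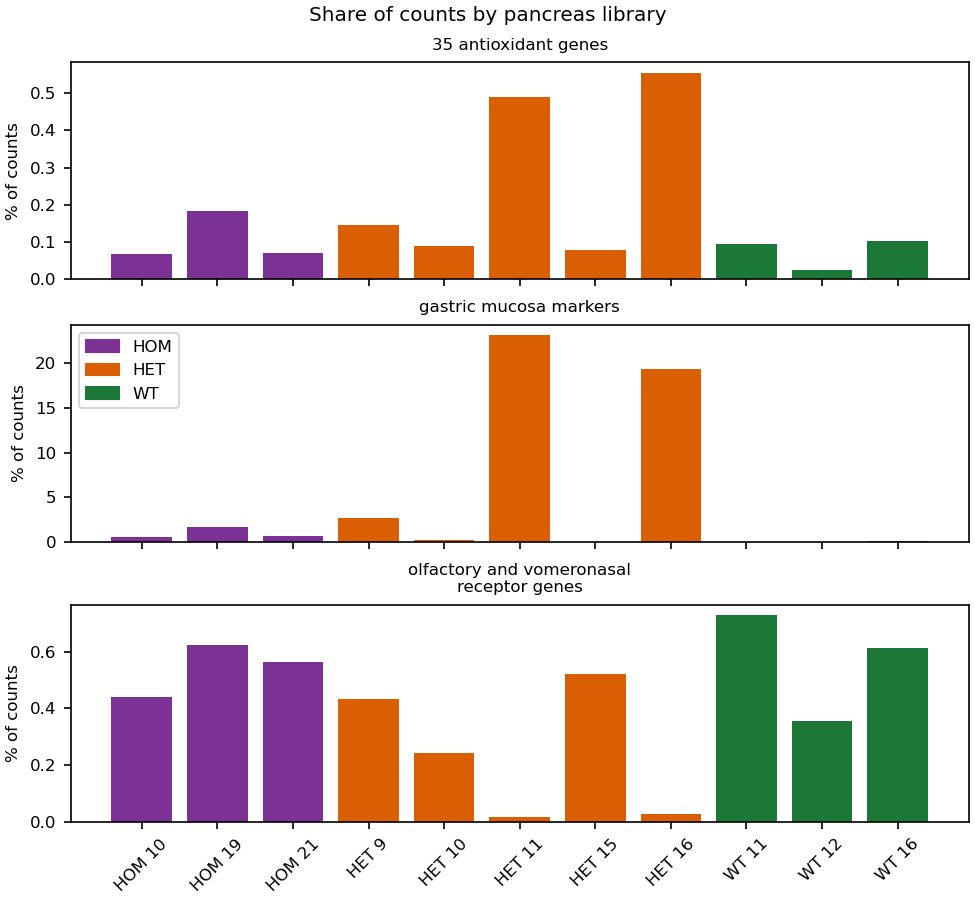
Share of counts, in percent, of the 35 antioxidant genes (top), gastric mucosa markers (middle) and olfactory and vomeronasal receptor genes (bottom) in each pancreas library, as bars from 0 coloured by genotype (HOM purple, HET orange, WT green). HET 11 and HET 16 are highest in the top and middle panels and lowest in the bottom panel.

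Mt1 had the highest mean level of the 35 genes over the 11 pancreata. It had 9.75, 0 and 15.5 CPM in HOM 10, HOM 19 and HOM 21, 323, 38.4, 1067, 0 and 1673 CPM in HET 9, HET 10, HET 11, HET 15 and HET 16, and 0 CPM in all 3 WT. In counts this was 1415 in HET 11, 1122 in HET 16 and 23 in the other 9 libraries together. Mt2 followed with 458 and 197 CPM in HET 11 and HET 16, at most 12.8 CPM in the other HET and at most 4.88 CPM in HOM and 5.31 CPM in WT. The mean Mt1 level in HET was 68.9-fold the limit that 3 counts over the WT group set (9.00 CPM). Over HET 9, HET 10 and HET 15 alone it was 13.4-fold that limit, on 19 counts. Here and below, the mean weights each library alike while the limit pools the counts of its group. Such a fold is therefore no strict lower bound. The groups overlapped, since HET 15 was at 0. The adjusted p was 0.0836 for Mt1 in HET against WT and 0.256 in HOM against HET, and Mt2 did not pass the filter on low counts.

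Sod1 had 0, 19.7 and 7.77 CPM in HOM 10, HOM 19 and HOM 21, 444, 0, 231, 0 and 468 CPM in HET 9, HET 10, HET 11, HET 15 and HET 16, and 0 CPM in all 3 WT. Of the 5 HET, 3 were high and 2 at 0. The mean HET level was 25.4-fold the WT limit of 3 counts, with an edgeR adjusted p of 0.0518. Without HET 11 and HET 16 it was 16.5-fold that limit, with all 22 counts from HET 9. Sod2, not one of the 35 genes, had counts in every pancreas library. Its means were 24.2 ± 14.9 CPM in HOM, 33.1 ± 34.8 CPM in HET and 27.0 ± 13.0 CPM in WT (SD). Against HET, the 2 Sod1 counts of HOM gave a ratio of 0.0185 (95% exact interval 0.00224 to 0.0671, for counting error only; adjusted p = 0.163), or 0.0686 (0.00782 to 0.279) without HET 11 and HET 16.

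Peroxide removal was carried by different genes in different libraries. Prdx5 had counts in all 11: 48.8, 158 and 155 CPM in HOM 10, HOM 19 and HOM 21, 121, 256, 237, 79.9 and 245 CPM in HET 9, HET 10, HET 11, HET 15 and HET 16, and 98.5, 110 and 74.3 CPM in WT 11, WT 12 and WT 16. All groups overlapped, and the means were 188 ± 81.2 CPM in HET (SD, n = 5) and 94.4 ± 18.4 CPM in WT (SD, n = 3). The fitted log2 fold change was 2.81 ± 1.91 (adjusted p = 0.628), on the TMM scale given above. Gpx3 had 508 and 777 CPM in HET 11 and HET 16, 1 count in HOM 21 and 0 counts in the other 8. Gpx1 had 322 and 233 CPM in HET 11 and HET 16 and at most 31.1 CPM elsewhere. Prdx2 was at 48.8, 158 and 0 CPM in HOM 10, HOM 19 and HOM 21, at 149 and 118 CPM in HET 11 and HET 16, at 0 in the other HET and at 0 in all WT. Its mean level was 7.65-fold the WT limit in HOM and 5.92-fold that limit in HET, with edgeR adjusted p = 0.957 and 0.101. Without HET 11 and HET 16, Prdx2 was at 0 in both HET and WT. Cat had 2 counts in all, both in HET 11.

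In the thioredoxin system, Txn2 was at 0, 118 and 0 CPM in HOM 10, HOM 19 and HOM 21, at 162, 0, 302, 0 and 161 CPM in HET 9, HET 10, HET 11, HET 15 and HET 16, and at 123, 0 and 79.6 CPM in WT 11, WT 12 and WT 16. Each group thus held a library at 0 and a library above 100 CPM. Txn1 and Msrb1 were low, at most 64.0 and 115 CPM, but had counts in 9 and 10 of the 11 libraries. Txnrd2 and Srxn1 had counts only in HET 11.

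Genes of glutathione synthesis and recycling were split. Gss had 46.6 CPM in HOM 21 and 0 in the other HOM. It had 233, 197 and 198 CPM in HET 11, HET 15 and HET 16 and 0 in the other HET. All WT were at 0. The mean HET level of Gss was 14.0-fold the WT limit (edgeR adjusted p = 0.0753). Without HET 11 and HET 16 it was 7.29-fold that limit, with all 32 counts from HET 15. Gclc, in contrast, had 82.9, 296 and 0 CPM in HOM 10, HOM 19 and HOM 21, 17.9 CPM in HET 16 and 0 in the other 4 HET, and 406, 0 and 186 CPM in WT 11, WT 12 and WT 16. Its log2 fold change in HET against WT was −4.19 ± 2.38 (adjusted p = 0.468). Gclm had 4.88, 257 and 77.7 CPM in HOM 10, HOM 19 and HOM 21, 17.3 and 111 CPM in HET 11 and HET 15 with 0 in the other HET, and 0 in all WT. The HOM and WT values of Gclm did not overlap, on 24 counts in all in HOM, and the gene did not pass the filter. Gsr was at 85.4 CPM in HOM 21, at 162 and 7.54 CPM in HET 9 and HET 11 and at 255 CPM in WT 16, with 0 in the other 7. In the fit with sex as a term its log2 fold change was 4.26 ± 2.54 for HOM over WT and 5.25 ± 2.40 for HOM over HET (adjusted p = 1 and 0.326), although the mean CPM was lower in HOM than in either, at 28.5 CPM in HOM against 33.8 CPM in HET and 84.9 CPM in WT. HET 9, HET 11 and WT 16 are the female libraries, so Gsr was at 0 in every male HET and WT library, and all HOM are male. The values fitted with sex thus set HOM against groups at 0 and show no fold. Without the sex term the values were −1.64 and −0.38.

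Pgd had 63.4, 0 and 69.9 CPM in HOM 10, HOM 19 and HOM 21, 101, 51.2, 617, 0 and 816 CPM in HET 9, HET 10, HET 11, HET 15 and HET 16, and 0, 0 and 5.31 CPM in WT 11, WT 12 and WT 16. On a single WT count, the summed ratio of HET over WT was 200.1 (95% exact interval 35.9 to 7911; adjusted p = 0.0753) and that of HOM over WT was 19.1 (3.08 to 787; adjusted p = 1). Without HET 11 and HET 16, which held 1365 of the 1374 HET counts, the ratio of HET over WT was 10.3 (1.43 to 453). G6pdx, the first enzyme of the same pathway, was highest in HOM, at 180, 513 and 0 CPM in HOM 10, HOM 19 and HOM 21, against at most 23.4 CPM in HET and 21.2 CPM in WT, and was not tested. Keap1 had 9.75 CPM in HOM 10 and 0 in the other HOM, 12.8, 103 and 122 CPM in HET 10, HET 11 and HET 16 and 0 in the other HET, and 222 CPM in WT 11 and 0 in the other WT. In HOM over WT the log2 fold change was −3.85 ± 2.48 (adjusted p = 1) and rests on WT 11; without that library WT is at 0 and there is no fold.

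Nfe2l2 was highest in WT 16, at 170 CPM, and at most 46.6 CPM in HOM and 56.7 CPM in HET. Sqstm1 was highest in HOM 19, at 316 CPM, and at most 25.6 CPM elsewhere. Park7 had 185 and 228 CPM in HET 11 and HET 16, 19.5 CPM in HOM 10 and 0 in the other 8. Glrx had 180 CPM in HOM 10, 1.51 to 129 CPM in 4 HET and 42.4 CPM in WT 16, and 0 elsewhere. Prdx6 had 38.8 CPM in HOM 21, 20.9 to 166 CPM in 4 HET and 84.9 CPM in WT 16, and 0 elsewhere. Of the rest, Gpx4, Prdx1, Prdx4, Txnrd1, Txnip, Hmox1, Nqo1 and Selenop stayed under 80 CPM in every pancreas.

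**Figure D5:**
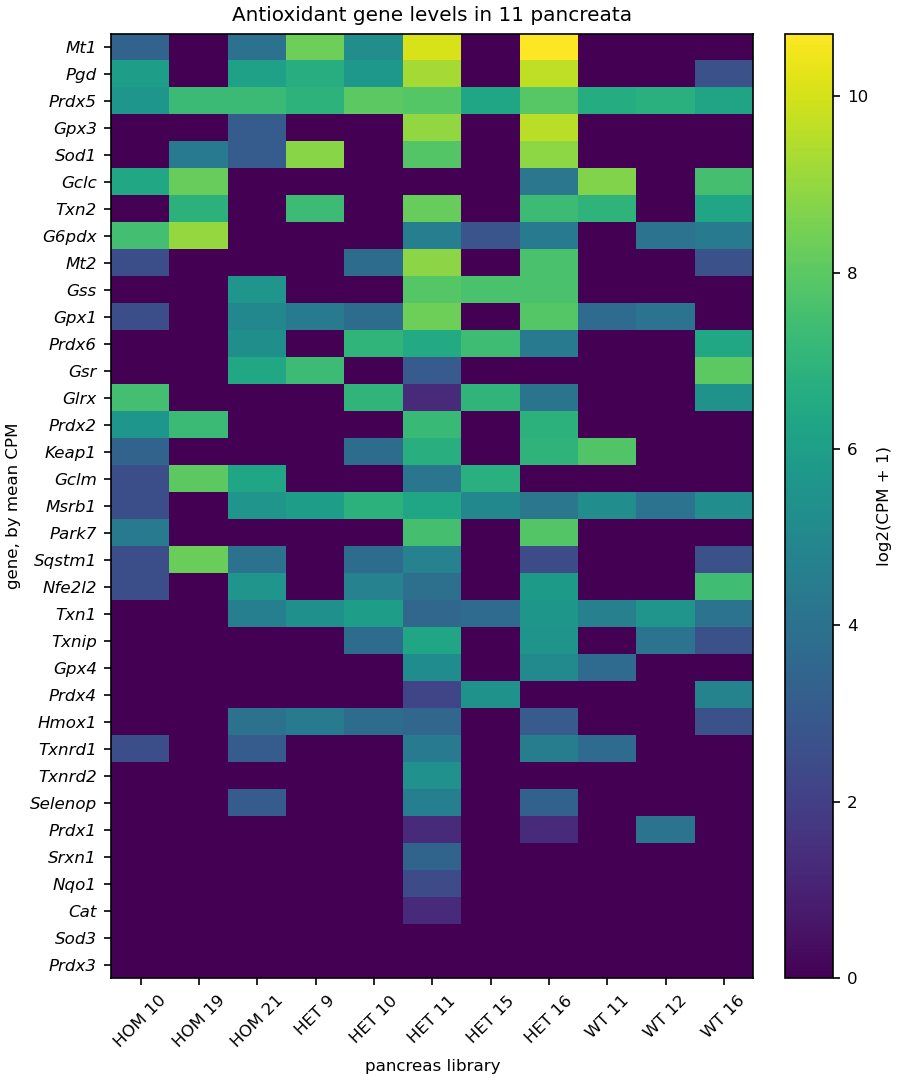
Heat map of log2(CPM + 1) of the 35 genes (rows, by mean CPM) in 11 pancreas libraries (columns, 3 HOM, 5 HET and 3 WT); 0 means no counts. Mt1, Pgd and Gpx3 are brightest in HET 11 and HET 16, Prdx5 has counts in every column, and Gclc, Gsr, Glrx and G6pdx are brightest outside these 2 libraries.

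The pancreas libraries varied so widely (biological coefficient of variation 166%, against 35.4% in liver) that a count of 0 calls there does not show that genes did not differ. By test, 12 of the 35 genes had enough counts in pancreas (Mt1, Sod1, Prdx2, Prdx5, Prdx6, Txn2, Gclc, Gss, Gsr, Glrx, Pgd and Keap1), and edgeR called none in any comparison. In HOM against WT, 0 of 12 passed the adjusted threshold, with 0% of the 3719 genes tested, and 1 (Prdx2, higher in HOM) had an unadjusted p under 0.05, against 4.97% of genes (4.06% higher and 0.914% lower). In HET against WT, 0 of 12 passed, again with 0% of genes, and 5 (Sod1, Gss, Pgd, Mt1 and Prdx2) had an unadjusted p under 0.05, all higher in HET, against 13.9% of genes (9.2% higher and 4.71% lower). In HOM against HET, 0 of 12 passed, with 0% of genes, and 5 had an unadjusted p under 0.05, against 11% of genes (6% higher and 5.03% lower). Of these, Sod1, Mt1, Keap1 and Pgd were lower in HOM. Gsr was fitted higher in HOM, but against male HET libraries at 0, so it shows no fold. These comparisons share libraries, so they do not count as separate evidence.

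The fitted level was higher in HOM than in WT for 9 of 12, against 53.8% of all genes. It was higher in HET than in WT for 10 (9 with scaling by total counts, where Keap1 turned), against 46.1% of all genes. It was higher in HOM than in HET for 2 (4 with that scaling, where Prdx2 and Glrx turned), against 58.9% of all genes. With the sex term, these counts and the medians below include Gsr, which shows no fold in the HOM comparisons. Without the sex term the numbers higher were 7, 10 and 1 of 12, in the same order, against 2037, 1751 and 2147 of all 3719 genes. The median fitted log2 fold change of HOM over WT was 2.39 for these genes and 0.19 for all genes, that of HET over WT 3.38 and −0.20, and that of HOM over HET −3.00 and 0.35. With scaling by total counts these medians were 2.76 and −0.05 for HOM over WT, 1.71 and −0.77 for HET over WT, and −1.51 and 0.72 for HOM over HET. Without the sex term they were 1.10 and 0.18 for HOM over WT, and 3.08 and −0.13 for HET over WT. For HOM over HET they were −4.14 and 0.32. With genes at 0 in WT set at their limit, the medians of these genes were 0.79 for HOM over WT and 2.76 for HET over WT, for which no like value over all genes was computed. Mt1 was left out of the 0.79, since its HOM mean of 8.43 CPM lay under the WT limit. The filter kept these genes in large part through the HET libraries, so their direction in HET is no independent sign. No tested gene had HOM, HET or WT groups free of overlap, while over all genes 8.31% lay wholly higher and 2.9% wholly lower in HOM than in WT. For HET and WT these shares were 0.753% and 3.58%, and for HOM and HET 6.21% and 0.484%.

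Other settings gave calls in pancreas. Without the sex term, edgeR called Sod1, Gss, Pgd and Mt1 higher in HET than in WT (adjusted p = 0.0282, 0.0433, 0.0456 and 0.0493). They were among 12 of the genes tested in that fit, which called 146 of all 3719 genes. With DESeq2's Wald test, in HET against WT, Mt1 (adjusted p = 0.00236) and Sod1 (adjusted p = 0.0236) were called, both higher in HET, among the 9 of these genes to which it gave an adjusted p, against 7.18% of all genes with one. In HOM against HET it called the same genes lower in HOM (adjusted p = 0.0109 for Mt1 and 0.0491 for Sod1). These were the only 2 of the 35 with an adjusted p there. DESeq2 gave one to 291 of the 3719 genes tested and called 53 of those, or 18.2%. In HOM against WT it called none of 11, against 0.145% of the 3452 genes with an adjusted p. Without HET 11 and HET 16, 3 of the genes could be tested (Prdx5, Gclc and Glrx) and none passed. Gclc was then at 0 in the remaining HET, where the limit of 3 counts was 10.3 CPM. The WT mean of 197 CPM was 19.1-fold that limit (edgeR adjusted p = 0.590). The log2 fold changes of Prdx5 were 0.22 ± 2.39 for HOM over WT and 0.62 ± 2.25 for HET over WT. Mt1 and Sod1 did not pass the filter in that fit.

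Of the 66 further pathway genes, 11 were tested in pancreas, 9 of them on the list of other NRF2 targets, and edgeR called none. DESeq2 called Akr7a5 in HET against WT (adjusted p = 0.0141), 1 of 9 genes with a value, against 7.18% of all genes with one. It also called Akr7a5 in HOM against HET (adjusted p = 0.0104), 1 of 2 with a value, against 18.2% of the 291 genes with one. The smallest p in HET against WT belonged to Gsta4 and Gstm2, glutathione transferases, Akr7a5, an aldehyde reductase, and Taldo1, a pentose phosphate enzyme. Gsta4 had 283, 0, 502, 0 and 203 CPM in HET 9, HET 10, HET 11, HET 15 and HET 16 and 0 in all HOM and WT (edgeR adjusted p = 0.0518 in HET against WT). Akr7a5 had 101, 128, 559, 0 and 1099 CPM in the same HET libraries and 0 in all HOM and WT (edgeR adjusted p = 0.0629). Outside HET 11 and HET 16, Gsta4 had 14 counts in HET 9, and Akr7a5 had 5 in HET 9 and 10 in HET 10. Gsta4 and Akr7a5 passed the filter only through HET libraries, so their direction and calls in HET are no independent sign. Like Mt1, Sod1 and Pgd, these genes had counts in HET 9 as well as in HET 11 and HET 16. HET 10 held Mt1, Pgd and Akr7a5 as well, but no Sod1 or Gsta4. HET 9 held 26201 CPM of gastric mucosa markers, the highest of the other 9 pancreata. It had 49502 counts in all, so that 3 counts there make 60.6 CPM. HOM 19, where 3 counts make 59.2 CPM, had Pgc at 6099 and Tff1 at 6474 CPM. It had 19.7 CPM of Sod1 and no counts of Mt1, Pgd, Gsta4 or Akr7a5. The part of stomach tissue in these levels was not tested.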

How the data were processed

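RNA (TRI reagent) went into bulk MARS-seq libraries, per the labels' protocols. The submitters' processing notes name cutadapt, STAR and mm10; versions, counting tool, strand and barcode collapsing are not given in the sources used here. Each tissue has 1 table of gene counts, in whole numbers, which the authors deposited as corrected without saying for what. No column was left over (0 without a library).

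EdgeR 4.0.16 (R 4.3.3) was used with filterByExpr, TMM, robust quasi-likelihood fits and Benjamini-Hochberg adjustment over all genes tested (threshold 0.05). The pancreas model held genotype and sex over 11 libraries, and the liver model genotype over 7. Fits were tested on simulated data, where the liver fit found large known changes and the pancreas fits found none. A group at 0 is given a limit of 3 counts over its summed total; limits and exact intervals (SciPy 1.17.1) cover counting error only. DESeq2 1.42.0 was an alternative test. Total-count scaling shifted the all-gene median log2 fold change by −0.24 (HOM over WT), −0.57 (HET over WT), 0.37 (HOM over HET) and −0.10 (liver); DESeq2 size factors shifted it by −0.16 (HOM over WT) and −0.12 (HOM over HET).

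Genes and lists were chosen with earlier results of these data known. Described in full per tissue are genes past the threshold, the 5 smallest p per comparison, the 8 highest mean CPM, and metallothionein and superoxide genes; of pathway lists, up to 4 with the smallest p. Positions are from GENCODE mouse release 21; 15 of the 35 genes overlap another gene.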

Additional observations from a re-analysis of the deposited data

Results flagged for a closer look

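In groups of 5 libraries, a value was singled out where its gap to the nearest other value exceeded 0.71 of the range of the group (Dixon's 95% critical value). This held for 14 of the 67 HET groups tested. Chance gives about 1 in 20 for normally distributed values, which does not apply to 6 of the 14, where 4 of the 5 libraries were at 0 and the gap fills the range by construction.

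In HET livers, HET 5 stood above the other 4 for Sod1 (2728 CPM), Cat (1095 CPM), Txn1 (739.5 CPM) and Nqo1 (1.19 CPM, 2 counts), and below them for Gpx4 (145 CPM). HET 4 stood above the other HET livers for Keap1 (144 CPM).

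In HET pancreata, HET 11 was the only library with counts of Cat (1.51 CPM), Txnrd2 (42.2 CPM), Srxn1 (9.80 CPM) and Nqo1 (4.52 CPM), and HET 16 the only one with counts of Gclc (17.9 CPM). HET 15 stood above the other HET for Prdx4 (43.0 CPM, 7 counts) and Gclm (111 CPM, 18 counts), and HET 9 for Gsr (162 CPM, 8 counts). No gene had effects of opposite sign in every library of the 2 tissues.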

How the results depend on the processing

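Of the 35 genes, edgeR's main fits called 0 in each comparison. In HET against WT pancreas the count was 2 with DESeq2, 4 without the sex term (Sod1, Gss, Pgd and Mt1), 4 with the replicate block (fitted without sex, chosen after seeing the data) and 0 to 3 leaving out each library (1 without HET 9, 3 without HET 15). In HOM against HET it was 2 with DESeq2, and in liver 1 with no filter (Selenop). Over all genes tested, also 0 in each main fit, HOM against WT gave 5 with DESeq2, 5 with only the 2 groups, 13 without HET 11 and HET 16, and 0 to 4 leaving out each library (4 without HET 16). HET against WT gave 23 with total counts, 183 with DESeq2, 146 without sex, 9 without HET 11 and HET 16, 157 with the replicate block, and 0 to 92 leaving out each library (43 without HET 9, 92 without HET 15). HOM against HET gave 53 with DESeq2, 7 without HET 11 and HET 16, and 0 leaving out each library. Liver gave 16 with DESeq2, 57 with no filter, 6 with a mean of at least 10 CPM, 41 with the replicate block, and 0 to 6 leaving out each library (1 without HET 1, 6 without HET 5, 4 without WT 1). Without the sex term the sign turned for Gsr (−1.64 for HOM over WT, −0.38 for HOM over HET). Gsr was at 0 in every male HET and WT library and all HOM are male, so its values fitted with sex show no fold. Leaving out each library gave fitted values of −0.58 to 4.79 for Gsr and −5.98 to 2.91 for Keap1 in HOM over WT, but the −0.58 (without HOM 21) and the 2.91 (without WT 11) are fitted against a group at 0 and show no fold or sign. The sign also turned under total counts for Mt2 and Txn2 in liver, Keap1 in HET over WT, and Prdx2 and Glrx in HOM over HET, and without HET 5 for Gss, Txnip and Txn2 in liver.

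Same-numbered libraries did not deviate together (correlations across genes of 0.00597 and −0.0484 in HET and WT pancreas, 0.0786 in HOM and HET pancreas, −0.0251 and −0.0274 in liver), so the numbers are not taken as pairs. HOM shares no number with WT and 1 with HET, so no block was fitted there. Depth limits the pancreas values: 3 counts make 60.6 CPM in HET 9 and 2.26 CPM in HET 11, and 23 of the 35 genes could not be tested. In liver, 2 WT libraries limit the precision.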
